A study of Oryza sativa with 4 samples.

Results

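The chilling response of the indica rice cultivar 93-11 was described from 2 RNA-seq libraries, 1 of chilled and 1 of untreated seedlings. All genes that reached 1 RPKM (reads in a gene divided by its length in kilobases and by the depth of its library) in either library were taken, which left 19529 of the 55985 gene identifiers in the tables. Of these, 15498 reached 1 RPKM in both libraries, 1603 in the chilled library only and 2428 in the untreated library only. A gene that reached 1 RPKM in a single library had to differ, so counts are also given for the 15498 genes. Among the identifiers left out, 13274 had reads below that level and 23182 were at 0 in both libraries.

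The untreated group was a pool of aerial parts from 93-11 seedlings, 15 days old, raised in flooded pots of nutrient soil in a greenhouse set to 28 °C in the day and 25 °C in the night. The chilled group was the same cultivar and age after 33 h at 4 °C, held to within 1 °C. Neither group carries a transgene or mutation that the labels name, and the labels do not give the number of plants per pool. A pair of libraries of the japonica cultivar Nipponbare, grown and chilled the same way, completes the 4 libraries and served for scaling and for values set side by side. With 1 library per group there is no replicate and no test: every fold below compares 2 pools, and "rose" and "fell" mean past 2-fold by size.

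Rice is a plant of warm climates, and cold injures its seedlings: leaves yellow and wilt, and growth stops. Cold is known to act through calcium and protein kinases on the ICE1 factor, which switches on the DREB1 (CBF) transcription factors, and these bind the promoters of genes for protective proteins. Jasmonate, abscisic acid and ethylene are known to act beside this route, and light harvesting and chlorophyll synthesis are commonly lowered in chilled leaves.

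The 93-11 libraries held 13012799 reads (chilled) and 16682882 reads (untreated), as worked out from the RPKM values themselves, so a single read in a gene of 1 kb was worth 0.0768 and 0.0599 RPKM as deposited. The 10 most abundant genes took 4.7% of the chilled and 10.6% of the untreated reads. Levels below are RPKM divided by trimmed-mean (TMM) factors, 0.901 for chilled and 1.05 for untreated, and the log2 ratio is log2((chilled + 1)/(untreated + 1)), which understates the change of low genes. Counting intervals are 95% intervals of the log2 ratio of scaled reads without that added 1 RPKM, so for low genes they lie farther from 0 than the log2 ratio. All 5 green leaf markers had reads in both libraries, with a summed level of 35431 RPKM untreated and 9621 RPKM chilled. Of 4 root markers, 3 had reads untreated and 2 chilled, with sums of 8.34 and 6.40 RPKM, and NRT2.1 was at 0 in both. The meristem markers OSH1 and OSH15 summed to 0.03 and 0.08 RPKM, and the 4 endosperm markers to 3.13 and 3.37 RPKM. The leaf and endosperm sets include loci whose names could not be checked. All tissue markers together summed to 35443 RPKM untreated and 9631 RPKM chilled, and to 27298 and 3950 RPKM with checked names alone. In pooled tissue, fewer cells of a type and less RNA per cell cannot be told apart.

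Near 2-fold, chilled 93-11 had similar numbers of risen and fallen genes, in an order that turned with the scaling, while genes past 16-fold were mostly higher. Of the 19529 genes, 4511 rose (23.1%) and 3997 fell (20.5%), together 43.6%, and 56.4% lay within 2-fold. With the values as deposited the order turned, to 3829 higher and 4938 lower (43.7% of such genes higher), and with a pseudocount of 0.1 RPKM it was 5189 higher and 5260 lower. Past 4-fold, 1807 were higher (9.25%) and 1040 lower (5.33%). Past 16-fold, 324 were higher (1.66%) and 86 lower (0.440%). Past 64-fold, 69 were higher and 7 lower, so the upward share of such genes went from 53.0% at 2-fold to 79.0% at 16-fold and 90.8% at 64-fold.

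The upward tail past 16-fold was the longer under each scaling, pseudocount and filter tried, with 72.7% to 80.0% of such genes higher. It was also the longer among genes with at least 1 RPKM in both libraries, of which 213 were past 16-fold higher and 64 lower. In that set, 3343 genes rose (21.6%) and 2753 fell (17.8%) past 2-fold. Over all 19529 members, the order past 1.5-fold was the other way, with 6321 genes higher and 6566 lower.

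**Figure D1:**
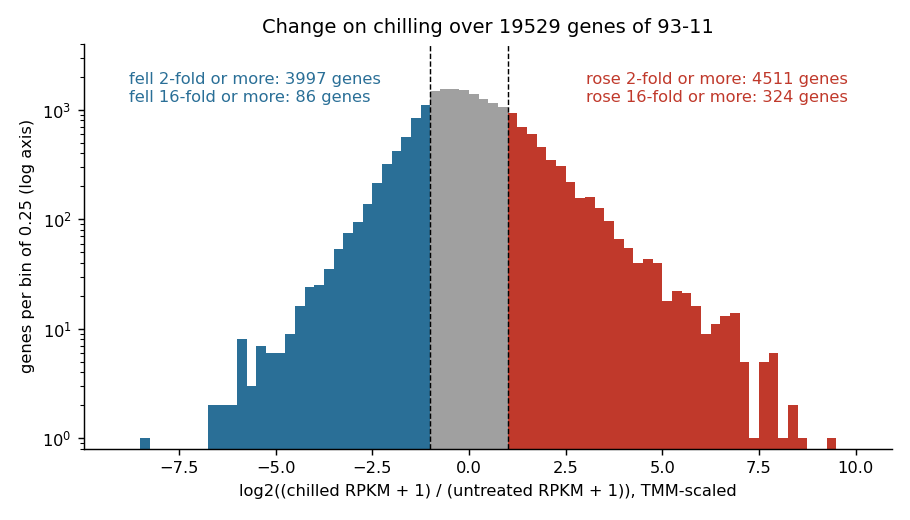
Number of genes of 93-11 (log axis) in bins of 0.25 of the log2 ratio, chilled over untreated, with dashed lines at 2-fold and colours for genes past it in each direction. The right arm is longer: 324 genes rose 16-fold or more and 86 fell as far.

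The middle of the distribution lay near 0. The median log2 ratio was -0.06, with quartiles of -0.85 and 0.91, an SD across genes of 1.505 and a 5th and 95th percentile of -2.05 and 2.67. The lowest gene stood at -8.34 and the highest at 9.49. With the values as deposited, without TMM factors, the median of all genes shifted by -0.19, so single values near 2-fold depend on the scaling.

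Counting error was small beside this spread for most genes. The 95% counting interval held no change for 3549 of the 19529 genes (18.2%), and the median half-width of the interval was 0.34 log2 units. The half-width was 0.93 at a mean level of 1 to 2 RPKM and 0.05 above 500 RPKM. With calls only where the whole interval lay past 2-fold, 4108 genes were higher (21.0%) and 3435 lower (17.6%). These intervals cover the counting of reads alone and not the spread between plants.

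The spread of change was widest among abundant genes on the log2 ratio used here. The interquartile range of the log2 ratio was 1.43 at a mean of 1 to 2 RPKM, 1.79 at 20 to 50 RPKM, 2.98 at 100 to 500 RPKM and 4.60 above 500 RPKM. Without the added 1 RPKM, the interquartile range of the read ratio was smallest in the middle, at 1.81 for 5 to 10 RPKM. It was 4.365 below 1 RPKM, 2.49 at 1 to 2 RPKM and 4.61 above 500 RPKM. The narrow spread of low genes thus rests on that 1 RPKM. Of 137 genes above 500 RPKM, 50 rose, 57 fell and 21.9% lay within 2-fold. Between 2 and 5 RPKM the fallen genes were the more numerous, 970 against 640. Between 20 and 50 RPKM this was turned, with 1000 risen and 482 fallen.

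**Figure D2:**
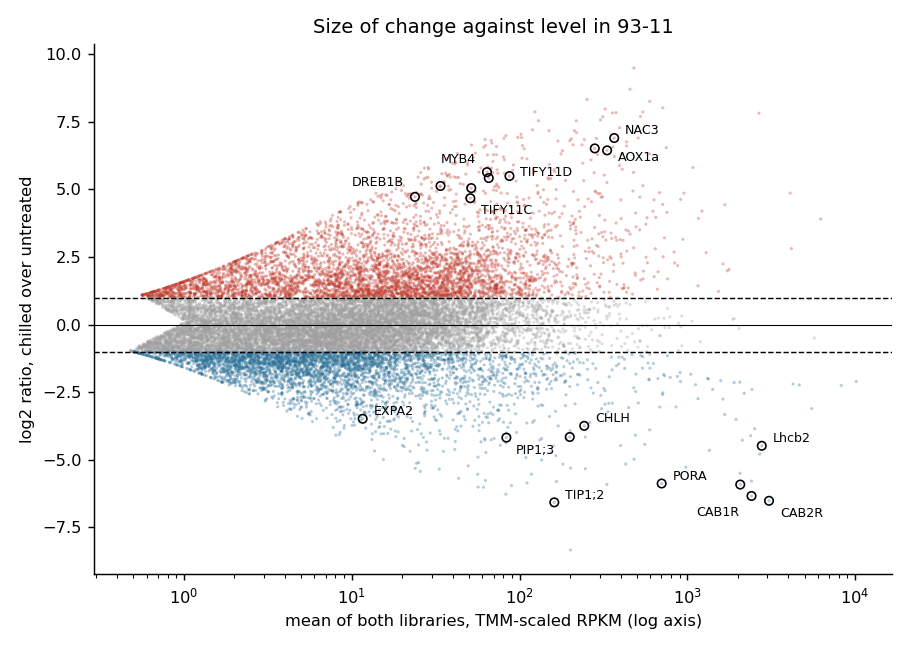
Log2 ratio, chilled over untreated, against the mean level of both 93-11 libraries (log axis), 1 point per gene, with dashed lines at 2-fold. Circles mark the 10 highest and 10 lowest genes with a checked name, some of them labelled, and the cloud widens towards high levels, with low levels compressed by the added 1 RPKM.

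The weight of the transcriptome moved from the fallen to the risen genes. The 3997 genes that fell held 50.7% of the summed RPKM of all members in the untreated library and 8.77% in the chilled library. The 4511 genes that rose held 10.6% untreated and 55.7% chilled. The 324 genes past 16-fold higher went from 0.403% to 15.2% of the sum, and the 86 past 16-fold lower from 10.5% to 0.282%. These shares follow from how the genes were grouped and are a description of size.

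The most abundant genes of untreated leaves were replaced in rank. Of the 50 highest in the untreated library, 42 fell and 0 rose, and 10 were also among the 50 highest of the chilled library. The top 10 untreated genes held 13.6% of the untreated sum and 2.40% of the chilled sum. Of the 50 highest in the chilled library, 39 rose and 5 fell. Among all members 23.1% rose and 20.5% fell. Each top 50 was picked on a level that is part of the ratio. The untreated top thus leans to falling and the chilled top to rising by that choice, and these counts are descriptions only. The checked members among the 50 highest untreated genes were RBCS2, RCA, FBA, CAB2R, Lhcb2, CAB1R, Lhcb3, PsaH, PetE, GS2, PORA, PetC and PIP2;7, and of these RBCS2, RCA and FBA were also in the chilled top 50.

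**Figure D3:**
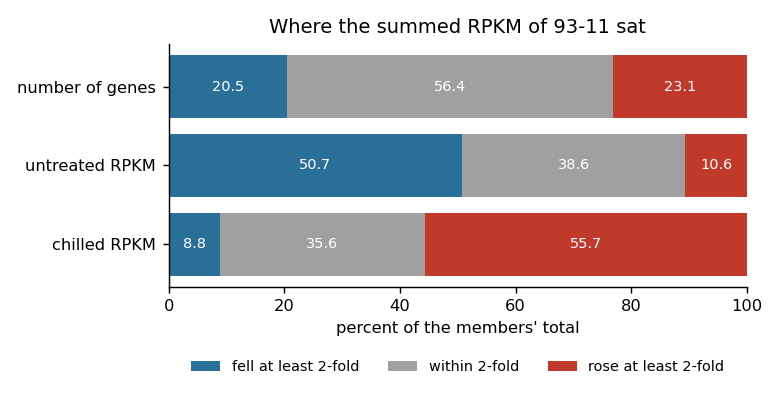
Percent of the 19529 genes (top bar) and of their summed TMM-scaled RPKM in each 93-11 library (lower bars) that fell at least 2-fold, lay within 2-fold or rose at least 2-fold. Genes that fell made up 20.5% of genes and 50.7% of the untreated sum.

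Longer gene models changed less often. Among members with at least 20 reads over both libraries, 47.2% of the models recovered as shorter than 500 bp lay within 2-fold, against 56.5% at 1500 to 2000 bp and 68.3% at 4000 bp or more. The lengths are the shortest that give whole reads, and short models also hold fewer reads. By chromosome in the identifier, the median log2 ratio ran from -0.26 on chromosome 11 to 0.05 on chromosomes 1 and 3. The share of genes that rose ran from 19.3% on chromosome 12 to 25.9% on chromosome 3, and the share that fell from 17.3% on chromosome 1 to 24.14% on chromosome 11.

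Risen and fallen genes also lay side by side in the order of the identifiers. Of runs of at least 5 consecutive members past 2-fold in the same direction, 32 were higher and 23 lower, and the longest held 8 genes in each direction. A run of 8 on chromosome 6 went from a summed level of 3.48 RPKM to 107 RPKM, and a run of 8 lower genes on chromosome 1 from 306 to 98.2 RPKM. The clock gene LUX stood in a run of 5 risen genes on chromosome 1, and the response regulator gene RR2 in a run of 5 fallen genes on chromosome 2. How many such runs a random order would hold was not computed.

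Gene names were used only where the RefSeq table gives the symbol the same chromosome and the same place in the gene order. This gave 297 named genes in 42 lists, of which 247 were members: 78 rose, 70 fell and 99 lay within 2-fold, with a median log2 ratio of -0.10. The lists were picked for cold and leaf biology with earlier results of these data known, so their counts are descriptions and no independent support. They are set beside the 23.1% of all members that rose and the 20.5% that fell. Among the 148 named members past 2-fold in 93-11, 125 (84.5%) were past 2-fold the same way in Nipponbare and 0 the other way. Among all 8508 members past 2-fold, 6004 (70.6%) were the same way and 28 the other way, and the named genes were picked for cold and leaf biology. A member with under 1 RPKM as deposited in a library entered through the other library and had to differ. List counts that hold such genes, named below or not, are descriptions only.

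**Figure D4:**
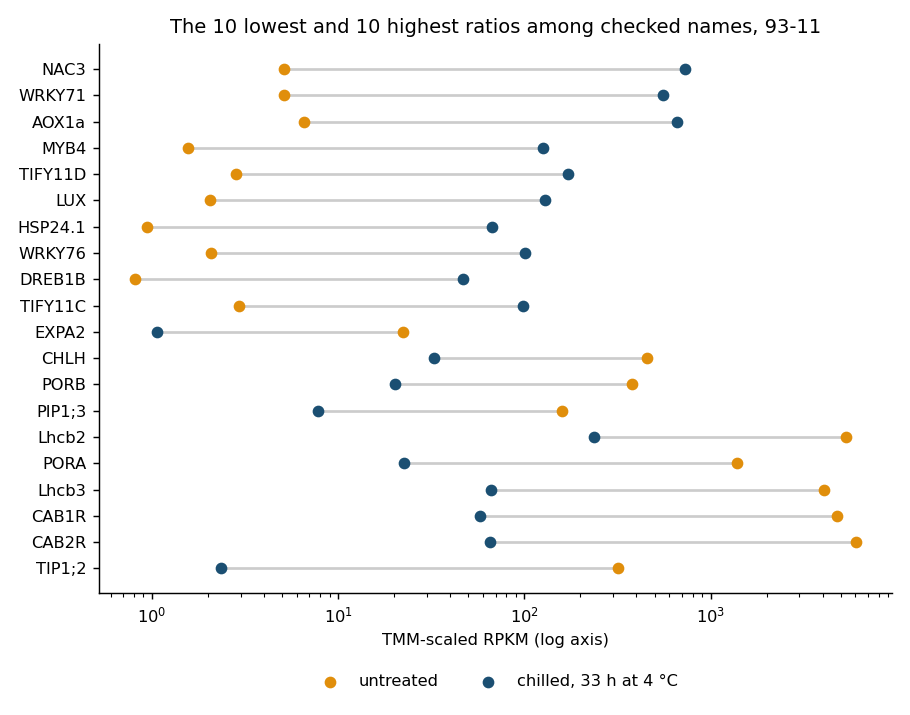
TMM-scaled RPKM (log axis) in the untreated and the chilled 93-11 library for the 10 highest and 10 lowest log2 ratios among members with a checked name. The 10 risen genes lay between 0.811 and 6.59 RPKM untreated, while 6 of the fallen genes lay above 450 RPKM.

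Upstream in cold signalling, the kinase genes rose and COLD1 stayed within 2-fold. CPK13, a calcium-dependent protein kinase gene, went from 30.7 to 771 RPKM (1101 and 18472 reads), a log2 ratio of 4.61 with a counting interval of 4.56 to 4.74. MAPK5, a MAP kinase gene, went from 4.37 to 66.8 RPKM (3.66), and MKK6, a MAP kinase kinase gene, from 26.0 to 167 RPKM (2.64). COLD1, a regulator of G-protein signalling known from rice cold sensing, stood at 11.9 and 14.8 RPKM (0.29). The list thus had 3 of 4 members higher and 0 lower.

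All 7 members of the DREB list rose, with a median log2 ratio of 3.17, but only 2 of them reached 1 RPKM in both libraries. DREB1B, a CBF-type activator of cold genes, went from 0.811 RPKM (14 reads) to 46.8 RPKM (539 reads), a log2 ratio of 4.72. DREB1A went from 0.865 to 34.5 RPKM (4.25), DREB1G from 0.403 to 12.8 RPKM (3.30) and DREB1C from 0.303 to 10.7 RPKM (3.17). These DREB1 genes were all below 1 RPKM in untreated seedlings, so they are members through the chilled library and had to be higher. Of all 1603 such members, 72.9% rose and 0 fell, with a median log2 ratio of 1.3965. The list count is thus a description only. DREB1H had 0 reads untreated and 26 reads chilled (2.38 RPKM), at least 12.99-fold higher against a floor of 3 reads. The list median was unchanged at 3.17 with DREB1H set at that bound.

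The DREB2 genes, better known from drought and heat, already had reads in untreated seedlings. DREB2B went from 32.9 to 222 RPKM (2.72) and DREB2A from 3.41 to 18.1 RPKM (2.11). DREB1E (0.270 and 0.810 RPKM) did not reach 1 RPKM in either library and DREB1F was at 0 in both. In Nipponbare the chilled levels were 6.36 RPKM for DREB1B, 10.5 for DREB1A and 43.9 for DREB2B, all below those of 93-11, with no test of the difference. Neighbouring DREB1 copies are similar in sequence, and the labels do not say how reads shared between them were counted.

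The list of other cold and stress transcription factors held the largest rise of any named gene, and all 8 of its members rose (median 2.96). NAC3, a NAC-domain factor, went from 5.12 RPKM (118 reads) to 728 RPKM (11208 reads), a log2 ratio of 6.90 with a counting interval of 6.89 to 7.43. Its rank by level moved from 11558 to 95 among the members. MYB4, a MYB factor studied for chilling tolerance, went from 1.56 to 126 RPKM (5.64). NAC5 went from 18.9 to 340 RPKM (4.10) and NAC6 from 86.6 to 507 RPKM (2.54). Both are stress NAC factors, and NAC6 was the more abundant of the pair in each library. MYBS3, a MYB repressor of sugar-regulated amylase genes, went from 95.7 to 535 RPKM (2.47). bZIP52 (3.13), MYB2 (2.79) and MYB3R-2 (2.29) made up the rest.

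The 4 named WRKY genes, which encode factors best known from defence, all rose (median 4.41). WRKY71 went from 5.10 to 556 RPKM (157 and 11430 reads), a log2 ratio of 6.51 and a counting interval of 6.54 to 7.01. WRKY76 went from 2.09 to 101 RPKM (5.05), WRKY24 from 2.82 to 51.4 RPKM (3.78) and WRKY62 from 0.693 to 18.4 RPKM (3.52). WRKY76 stood at 7.70 RPKM in chilled Nipponbare and 101 RPKM in chilled 93-11, while WRKY24 was the higher in Nipponbare, at 74.6 RPKM. Counting also the loci of unchecked name, 10 of 12 WRKY genes rose and 1 fell.

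Jasmonate genes rose mainly through the TIFY (JAZ) repressors, which block jasmonate-responsive transcription until the hormone triggers their breakdown. Of 18 members, 12 rose, 1 fell and 5 lay within 2-fold (median 1.49), and 10 rose with the values as deposited. TIFY11D went from 2.83 to 171 RPKM (5.49), TIFY11C from 2.92 to 98.9 RPKM (4.67), TIFY11B from 7.075 to 186 RPKM (4.53) and TIFY11A from 0.218 to 16.1 RPKM (3.81). TIFY10A (2.40), TIFY6A (1.68), TIFY6B (1.31) and TIFY10B (1.11) rose less from higher untreated levels, and TIFY10C stood at -0.53. The synthesis enzymes did not move as a block. The allene oxide synthases AOS2 (1.63 to 15.4 RPKM, 2.64) and AOS1 (2.76 to 10.9 RPKM, 1.66) rose. AOC, allene oxide cyclase, was the lowest of the list and fell from 39.1 to 7.09 RPKM (-2.31). Among the receptors, COI2 was at 1.05, COI1b at 0.94 and COI1a at -0.94.

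Ethylene genes were higher in 4 of 5 members (median 1.49). ERS1, a receptor gene, went from 31.5 to 155 RPKM (2.26) and the receptor gene ETR2 from 5.12 to 17.68 RPKM (1.61). The synthesis genes ACO1 (5.41 to 17.0 RPKM, 1.49) and ACS2 (0.391 to 2.65 RPKM, 1.39) rose, and EIN2, the central signal transducer, stood at 3.99 and 4.53 RPKM (0.15).

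Abscisic acid genes were split. In synthesis and breakdown, 2 of 5 members rose and 2 fell. ABA8ox1, a hydroxylase that breaks the hormone down, went from 7.31 to 204 RPKM (4.63) and ABA8ox3 from 7.79 to 20.8 RPKM (1.31). The third gene of this kind, ABA8ox2, fell from 8.13 to 1.71 RPKM (-1.75), and ZEP, an early synthesis enzyme, from 213 to 89.1 RPKM (-1.25). NCED3, the committed step of synthesis, stood at 4.60 and 8.81 RPKM (0.81).

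In abscisic acid signalling, 6 of 20 members rose and 4 fell (median 0.56). These counts lay near the shares of all members, of which 23.1% rose and 20.5% fell. The highest was PP2C68, a phosphatase that holds the pathway off, at 8.57 and 106 RPKM (3.49), beside SAPK9, a kinase that turns it on, at 3.01 and 43.8 RPKM (3.48). The lowest was SAPK7, which fell from 12.4 to 3.01 RPKM (-1.74), so kinases of the same family stood at both ends. SAPK2 (2.65), PP2C30 (2.63), SAPK10 (1.72) and PP2C09 (1.03) also rose, and SAPK3 (-1.51), PP2C49 (-1.49) and SAPK4 (-1.15) fell.

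Gibberellin and brassinosteroid genes gave small lists. SLR1, the DELLA repressor of gibberellin signalling, went from 66.0 to 164 RPKM (1.30) and the receptor gene GID1 from 26.4 to 61.1 RPKM (1.18, short of 2-fold as deposited), while the synthesis gene GA20ox2 fell from 8.63 to 0.440 RPKM (-2.74). BZR1, the brassinosteroid transcription factor gene, went from 7.81 to 79.7 RPKM (3.19) and stood at 14.8 RPKM in chilled Nipponbare. BRD1, a synthesis gene, rose (1.75) and D11, another, fell (-1.51), and 3 of 6 brassinosteroid members lay within 2-fold.

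Cytokinin response regulators of type A, early targets and brakes of cytokinin signalling, fell in 4 of 6 members and rose in 0 (median -2.10). RR2 went from 29.5 to 3.22 RPKM (-2.86), RR10 from 15.2 to 1.95 RPKM (-2.46), RR4 from 15.5 to 2.13 RPKM (-2.40) and RR9 from 14.4 to 3.43 RPKM (-1.80). RR6 was the highest, at 6.69 and 7.29 RPKM (0.11).

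Light harvesting had the lowest median of the lists. The 4 named light-harvesting complex genes, for the chlorophyll-binding antenna proteins, all fell (median -6.13). CAB2R went from 6067 RPKM (131757 reads) to 65.1 RPKM (944 reads), a log2 ratio of -6.52 with a counting interval of -6.63 to -6.45. CAB1R went from 4766 to 57.8 RPKM (-6.34), Lhcb3 from 4066 to 66.3 RPKM (-5.92) and Lhcb2 from 5315 to 236 RPKM (-4.49). The summed level of these genes went from 20213 to 426 RPKM. With loci of unchecked name, 11 of 11 fell with log2 ratios from -6.52 to -3.51, and their summed level went from 46797 to 1510 RPKM. CAB1R was lower still in chilled Nipponbare, at 14.3 RPKM.

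Chlorophyll synthesis fell in 7 of 10 members and rose in 0 (median -2.002). PORA, the light-dependent protochlorophyllide reductase, went from 1383 to 22.5 RPKM (-5.88), and its relative PORB from 378 to 20.2 RPKM (-4.16). CHLH, the large subunit of magnesium chelatase, went from 453 to 32.8 RPKM (-3.75) and the subunit CHLI from 126 to 29.1 RPKM (-2.08). The chelatase subunit CHLD did not follow them, at 30.1 and 34.6 RPKM (0.19). CAO1 (-2.70), DVR (-1.92) and HEMA1 (-1.87) also fell, and GSA was the highest, at 70.2 and 117 RPKM (0.73).

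Chlorophyll breakdown had 2 of 4 members higher. NYC1, a chlorophyll b reductase, went from 71.8 to 344 RPKM (2.24) and SGR, the stay-green magnesium dechelatase, from 36.5 to 85.5 RPKM (1.20). RCCR1, a later enzyme of the pathway, was the lowest, at 12.4 and 8.08 RPKM (-0.57). With the values as deposited, 1 of the 4 rose, and with loci of unchecked name the list median was -0.14 in place of 0.42.

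Named photosystem and carbon fixation genes fell less steeply than the named antenna genes. PsaH, a photosystem I subunit, went from 2380 to 450 RPKM (-2.40) and PetE, plastocyanin, from 1844 to 393 RPKM (-2.23). PetC, the Rieske protein, stood at 1173 and 679 RPKM (-0.79) and LFNR1, ferredoxin-NADP reductase, at 437 and 370 RPKM (-0.24). With loci of unchecked name, 15 of 17 in this list fell and 0 rose (median -2.40, lowest -4.92). The lowest lay within the antenna range of -6.52 to -3.51. In the Calvin cycle, RCA, Rubisco activase, went from 13642 to 2861 RPKM (-2.25), FBA, a fructose-bisphosphate aldolase, from 7662 to 1628 RPKM (-2.23) and RBCS2, a Rubisco small subunit, from 16454 to 3817 RPKM (-2.11). RBCS2 had the highest level of any member in the untreated library and still ranked 7 in the chilled library. The fructose-bisphosphatase cpFBPase stood at 449 and 313 RPKM (-0.52).

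Most named photorespiration and nitrogen assimilation genes lay within 2-fold with the TMM factors. The photorespiration genes GDCH (-0.83), GLO5 (-0.40) and GLO1 (-0.12) stayed within 2-fold, except GDCH with the values as deposited, and GLO1 stood at 810 and 745 RPKM. With loci of unchecked name, 3 of 7 fell and 0 rose (median -0.83, lowest -2.14), and their summed level went from 4605 to 2425 RPKM. GS2, the plastid glutamine synthetase, fell from 1402 to 408 RPKM (-1.78) and the cytosolic GS1;2 from 15.5 to 7.17 RPKM (-1.01). AMT1;1, an ammonium transporter gene, had nearly the same level in both libraries, 108.6 and 109.0 RPKM (0.01). In the nitrogen list 2 of 6 members fell, and 1 to 5 did so over the 4 scalings, since most of them lay close to 2-fold. With loci of unchecked name, 3 of 10 fell and 1 rose, the lowest at -4.27.

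The aquaporins, membrane channels for water, fell in 7 of 12 members and rose in 1 (median -1.53), with 6 to 8 falling over the scalings. TIP1;2, a channel of the vacuole membrane, had the lowest log2 ratio of any named gene: it went from 320 RPKM (7918 reads) to 2.36 RPKM (39 reads), a log2 ratio of -6.58 with a counting interval of -7.58 to -6.63. PIP1;3, of the plasma membrane, went from 159 to 7.82 RPKM (-4.18). PIP1;2 went from 553 to 63.1 RPKM (-3.11) and PIP1;1 from 572 to 73.4 RPKM (-2.95). PIP2;1 (-2.10) and PIP2;2 (-2.05) fell less, and the most abundant, PIP2;7, stood at 1165 and 601 RPKM (-0.95). TIP2;2, also of the vacuole membrane, was the single member that rose, from 130 to 383 RPKM (1.55).

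Genes of wall growth fell more often than they rose. Expansins, which loosen the wall, fell in 6 of 9 members (median -1.46). Only 5 of the 9 reached 1 RPKM in both libraries as deposited, and EXPA2 was not among them. This list count is thus a description only. EXPA2 went from 22.2 to 1.07 RPKM (-3.48) and EXPB3 from 75.4 to 12.8 RPKM (-2.47), while EXPA5 rose from 1.005 to 10.5 RPKM (2.52). Cellulose synthases fell in 4 of 9 members and rose in 1 (median -0.93). CESA3, of the primary wall, was the lowest, at 198 and 52.9 RPKM (-1.89). The secondary wall genes CESA7 (-1.53), CESA4 (-1.30) and CESA9 (-0.93) lay near each other. CESA2 was the highest, at 6.02 and 16.6 RPKM (1.33). Of 4 cell division members, PCNA, the replication clamp, fell from 3.55 to 0.886 RPKM (-1.27) and CDKB2;1 rose from 1.79 to 7.19 RPKM (1.55).

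Protective proteins did not move together. LIP9, a dehydrin gene known to be cold-inducible, went from 53.7 to 589 RPKM (3.43) and Lti6b, a small membrane protein gene, from 257 to 832 RPKM (1.69). Its relative Lti6a stood at 162 and 105 RPKM (-0.62). The dehydrin RAB16A (8.58 to 0.424 RPKM, -2.75) and the LEA protein gene LEA3-1 (5.26 to 1.67 RPKM, -1.23), both known from abscisic acid and drought, fell. RAB16B had 86 reads untreated and 0 chilled, at least 19.1-fold lower against a floor of 3 reads. In all, 2 of 7 members rose and 3 fell (median -0.71, also with RAB16B at its bound). Reads of the neighbouring RAB16 copies are uncertain as single genes.

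Among enzymes of protective sugars and proline, 3 of 7 rose and 1 fell. TPP2, a trehalose-phosphate phosphatase, went from 0.939 to 8.18 RPKM (2.24), TPP1 from 1.06 to 5.67 RPKM (1.70) and RafS, of raffinose synthesis, from 15.7 to 48.2 RPKM (1.56). The proline synthesis gene P5CS1 stood at 17.5 and 23.4 RPKM (0.40) and its relative P5CS2 at 3.37 and 1.36 RPKM (-0.89). BADH2, a betaine aldehyde dehydrogenase, was the lowest, at 65.3 and 31.98 RPKM (-1.01).

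AOX1a and HSP24.1 were among the 10 highest named genes. AOX1a, the alternative oxidase that bypasses part of the respiratory chain, went from 6.59 RPKM (176 reads) to 659 RPKM (11729 reads), a log2 ratio of 6.44 with a counting interval of 6.43 to 6.87. HSP24.1, a mitochondrial small heat shock protein gene, went from 0.940 to 66.7 RPKM (5.12). Of 12 antioxidant enzyme members, 8 lay within 2-fold, 1 rose and 3 fell (median -0.63). Among all members 56.4% lay within 2-fold, 23.1% rose and 20.5% fell. The cytosolic ascorbate peroxidases stood at opposite ends, APX2 at 215 and 42.1 RPKM (-2.32) and APX1 at 67.2 and 151 RPKM (1.15, short of 2-fold as deposited). CATA, a catalase, went from 399.7 to 198.8 RPKM, at the 2-fold limit (-1.004).

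Among chaperones, HSP101 also rose, from 2.88 to 8.07 RPKM (1.23), and HSP17.7 was the lowest member, at 3.44 and 1.24 RPKM (-0.98); the list median of -0.21 became 1.23 for genes with at least 5 RPKM in either library. Heat shock factors, the regulators of such genes, rose in 3 of 8 members and fell in 2, beside 23.1% and 20.5% of all members. The class C factors HsfC1b (1.58 to 25.6 RPKM, 3.36), HsfC2a (11.05 to 62.0 RPKM, 2.39) and HsfC2b (9.02 to 22.4 RPKM, 1.22) were the risen ones. HsfA2d (48.9 to 7.48 RPKM, -2.56) and HsfA2c (8.05 to 0.844 RPKM, -2.29) of class A fell. HsfC1a (0.395) of class C and HsfA2e (0.77) and HsfA2b (0.61) of class A lay within 2-fold, so neither class moved as a block.

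Clock genes moved apart. LHY, expressed in the morning, fell from 800 to 94.1 RPKM (-3.07) and PRR37 from 75.5 to 33.2 RPKM (-1.16). LUX, of the evening complex, went from 2.04 RPKM (47 reads) to 129 RPKM (1981 reads), a log2 ratio of 5.42, and PRR1 from 13.7 to 88.4 RPKM (2.61). GI stood at 238 and 230 RPKM (-0.05). The list median was 0.12 and ran from -0.10 to 0.17 over the scalings. The labels do not give the time of day at which each pool was taken. LUX reached 20.6 RPKM in chilled Nipponbare, against 129 in 93-11. None of the 3 checked photoperiod flowering genes was a member, and Hd1 stood at 0.587 and 0.259 RPKM.

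Of 5 named light-signalling genes, 1 rose and 1 fell, and with loci of unchecked name 1 of 7 rose and 2 fell, the lowest at -3.01. GLK1, a factor for chloroplast development, fell from 195 to 80.0 RPKM (-1.27), while its relative GLK2 stood at 103 and 193 RPKM (0.90). The photoreceptor gene PHYB went from 15.3 to 33.1 RPKM (1.06), which was short of 2-fold with the values as deposited, and PHYA stood at 10.1 and 4.98 RPKM (-0.89).

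Sugar genes gave mixed lists, while starch synthesis genes fell more often than they rose. Sucrose synthase SUS4 rose from 9.995 to 74.4 RPKM (2.78) and the transporter gene SUT4 from 8.19 to 22.6 RPKM (1.36), and CIN1, a cell wall invertase, was the lowest, at 41.9 and 20.9 RPKM (-0.97). The list's median, 0.21, ran from -0.01 to 0.26 over the scalings and was -0.48 with loci of unchecked name. Of the SWEET sugar exporters, SWEET2A (11.4 to 48.0 RPKM, 1.98) and SWEET11 (0.580 to 4.67 RPKM, 1.84) rose and SWEET13 fell from 16.04 to 2.80 RPKM (-2.17). SWEET13 was at 31.6 and 30.3 RPKM in Nipponbare. Starch synthesis fell in 2 of 5 members, and in 2 to 4 over the scalings: SSI went from 54.8 to 21.5 RPKM (-1.31) and GBSSI from 1.19 to 0.073 RPKM (-1.03), and ISA1 was the highest (0.93). With loci of unchecked name, 6 of 10 starch genes fell and 0 rose (median -1.06, lowest -5.33), from a summed level of 947 to 224 RPKM. The amylase gene RAmy3D rose from 0.063 to 15.0 RPKM (3.91, 3 and 478 reads), and RAmy2A stood at 1.98 and 1.55 RPKM (-0.23).

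Of 5 diterpenoid phytoalexin members, 3 fell and 0 rose (median -1.02, and -0.83 with CYP99A3 at its bound). The 3 fallen genes reached 1 RPKM in the untreated library only, so they had to be lower as deposited, though not past 2-fold. Of all 2428 such members, 51.2% fell and 0 rose. For genes with at least 5 RPKM in either library the list median was 0.032. KSL5 went from 2.70 to 0.117 RPKM (-1.73) and CPS2 from 2.75 to 0.253 RPKM (-1.58). CYP99A3 had 33 reads untreated and 0 chilled, at least 7.34-fold lower against a floor of 3 reads. KSL7 was the highest, at 13.4 and 24.7 RPKM (0.83), a gene that lay below 0.1 RPKM in both Nipponbare libraries. The chitinase gene CHT8 rose from 3.45 to 16.3 RPKM (1.96) and PBZ1, a pathogenesis-related gene, stood at 20.4 and 11.0 RPKM (-0.83), and the median of this list was 0.90, or -0.08 with loci of unchecked name. The flavonoid genes CHS1, chalcone synthase (325 to 52.9 RPKM, -2.60), and CHI, chalcone isomerase (236 to 58.4 RPKM, -1.99), both fell. None of the phenylalanine ammonia-lyase names could be checked, and of 7 such members 3 rose and 1 fell.

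Genes often used as references were not all level. ACT1, actin, fell from 63.6 to 25.6 RPKM (-1.28), while GAPC (-0.29), EF1A (-0.17) and UBQ5 (0.14) stayed within 2-fold. With loci of unchecked name, 1 of 5 rose (1.31) and 1 fell. The single named desaturase gene, SSI2, stood at 117 and 76.1 RPKM (-0.62), and the median of 5 desaturase loci with unchecked names included was 0.43.

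**Figure D5:**
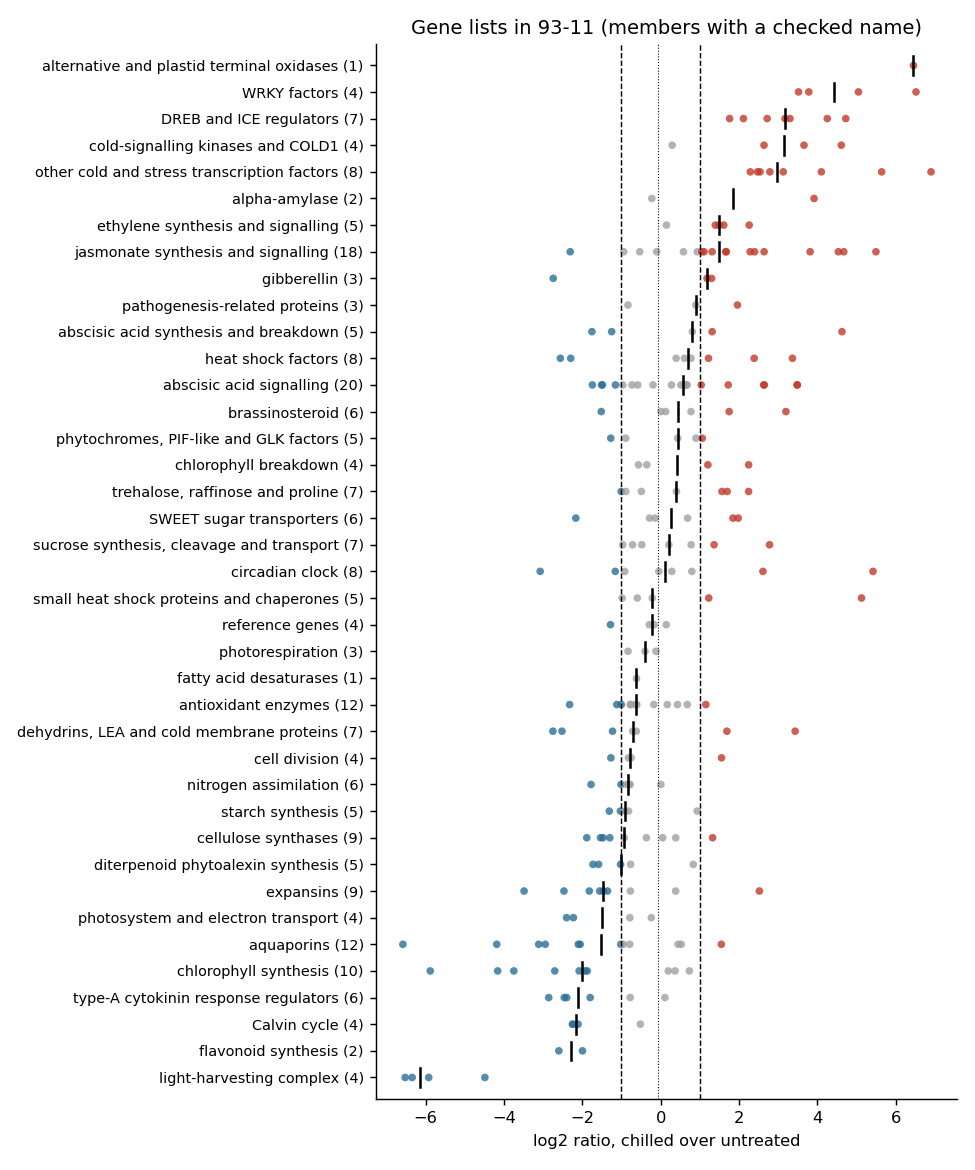
Log2 ratio, chilled over untreated, of each member with a checked name (points), by gene list with the number of members in brackets, with list medians (bars), dashed lines at 2-fold and a dotted line at the median of all members. Lists run from the light-harvesting complex at -6.13 to the alternative oxidase, 1 gene, at 6.44.

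The extremes of the whole distribution carried no checked name. LOC_Os04g12960 was the highest, at 0.340 RPKM (10 reads) untreated and 959 RPKM (18820 reads) chilled, a log2 ratio of 9.49 with a counting interval of 10.6 to 12.5. It ranked 57 by level among the members of the chilled library, and stood at 0.210 and 12.2 RPKM in Nipponbare. LOC_Os01g09220 followed, at 1.18 and 909 RPKM (8.71). LOC_Os03g56930 was the lowest, at 402 RPKM (9846 reads) and 0.245 RPKM (4 reads), a log2 ratio of -8.34, and LOC_Os04g56230 came next among genes with no checked name, at 164 and 1.14 RPKM (-6.27). What these loci encode is not annotated in the tables used here.

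Few members had no read in a single library. There were 199 members with 0 reads untreated and 126 with 0 reads chilled, at a median of 19 and 15 reads in the other library. At least 50 reads in the other library were seen for 45 of the former and 21 of the latter.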

How the data were processed

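Messenger RNA of pooled aerial parts was sequenced on an Illumina HiSeq instrument after oligo(dT) selection, per the labels' protocols. The authors deposited 1 RPKM value for each of 55985 identifiers in each of 4 libraries. The submitters' processing notes list HTSeq 0.5.4p3, TopHat2 2.0.9 and Bowtie2 2.0.6. The genome build, strand use and the treatment of reads from near-identical or overlapping genes were not given in the sources used here. If 93-11 reads were mapped to another cultivar's genome, reads at sequence differences could be lost in both 93-11 libraries.

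Library totals, gene lengths and whole reads were recovered as the smallest whole numbers that give the deposited RPKM values, for 36941 of 36941 genes above 0. With shifted totals, 0 of 500 genes could be solved. Recovered reads summed to 97.7% to 98.1% of the totals and are known up to a common whole factor per gene. TMM factors were computed from these reads over the 4 libraries (trimming 0.3 of ratios and 0.05 of intensities), and the deposited RPKM values were divided by them. Log2 ratios used a pseudocount of 1 RPKM. Counting intervals were exact conditional binomial (Clopper-Pearson) 95% intervals of scaled reads, with 3 reads as the floor where a library had 0. PCR copies of a molecule count as separate reads, so intervals and floors cover the counting error alone. Read recovery, scaling and calls were run on simulated data with few changed genes, as many up as down, and counting error alone. Those data could not test the scaling under changes as many and as lopsided as here. Python 3.11.15, numpy 2.4.6, pandas 2.3.3 and scipy 1.17.1 were used.

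In the gene table of RefSeq, built on assembly ASM3414082v1, 0 of the identifiers were found. Of 429 listed loci, 297 had a name that this table places on the same chromosome, in the same order and within 1 Mb of the interpolated position; 120 were not in it, 5 lay on another chromosome, 5 had several entries, 1 was out of order and 1 was not among the identifiers. Which locus carries which name was taken from general knowledge, and the table only failed to contradict it. The genes, lists and settings were chosen with earlier results of these data known, 28 of the lists and some synonyms after the tables were at hand. Named genes are the 10 highest and 10 lowest checked members, the highest and lowest checked member of each list and all past 2-fold in lists of 8 or fewer, the 2 highest and 2 lowest loci with no checked name, checked members among the 50 most abundant of each library, and those with 0 reads in 1 library. Further list members are named for completeness and were chosen after their values were seen. No sequences are shown.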

Additional observations from a re-analysis of the deposited data

How the results depend on the processing

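Each count past 2-fold stayed within 1.5 times of 4511 higher and 3997 lower under each scaling, pseudocount and filter and with intervals wholly past 2-fold, but their order turned with the values as deposited (3829 and 4938) and with a pseudocount of 0.1 RPKM (5189 and 5260). At 1.5-fold 6566 genes were lower, and at 4-fold 1807 were higher and 1040 lower (63.5% higher), by construction of the threshold. The median log2 ratio was -0.25 with the values as deposited. The interquartile range, 1.76, was 2.19 with a pseudocount of 0.1 RPKM, 1.97 with 0.5 RPKM, 1.96 for genes with at least 5 RPKM in either library and 0.86 with no filter, which adds genes near 0. Of 40 list medians, 40 moved by at most 0.25 under each of the other scalings, while 12 moved further with a pseudocount of 0.1 RPKM and 11 with all loci of a list. Those of clock and sucrose genes changed sign as deposited (-0.10 and -0.01). The diterpenoid median changed sign, to 0.032, with the filter at 5 RPKM, and the amylase median, to -0.13, with no filter. The chaperone median also did, from -0.21 to 1.23 at 5 RPKM, and sucrose, to -0.03, with no filter. In these cases the filter changed which genes were counted. With all loci, the medians of pathogenesis-related (-0.08), chlorophyll breakdown (-0.14), sucrose (-0.48) and desaturase genes (0.43) changed sign.

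No paired analysis was possible because each group holds 1 library, so leaving out a library ends the comparison. The counts past 16-fold under these settings were added after seeing the data, and with a pseudocount of 0.1 RPKM they were 752 higher and 282 lower in place of 324 and 86. Depth limits genes near 1 RPKM most: at a mean of 1 to 2 RPKM, the counting interval held no change for 34.1% of genes. Plant-to-plant spread, harvest time and pool size could not be examined.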
